A study of Mus musculus with 14 samples.

Results

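Chemokines and their receptors were examined in mouse subcutaneous white adipose tissue (scWAT), as the set of genes whose symbol starts with Ccl, Cxcl, Ccr or Cxcr and a digit, together with Cx3cl1, Cx3cr1, Xcl1 and Ackr1 to Ackr4. The rule found 53 genes among the 18193 genes with a single symbol on the array, of which 33 encode ligands and 20 encode receptors. They were covered by 85 probe sets. For the 20 genes with several probe sets, the one with the highest mean over the 14 arrays was used, and 33 genes had a single probe set. A mean signal of at least 389.8, the 40th percentile of all probe sets, was required for testing, and 44 of the 53 genes (27 ligands and 17 receptors) passed it. The remaining 9, Ccl1, Ccl3, Ccl20, Cxcl3, Cxcl11, Cxcl15, Ccr3, Ccr8 and Cxcr2, are described by their signals alone. Nearest to the limit were Ccr10, inside it with a mean signal of 404.4, and Cxcl11, outside it with 370.4. For Cxcl2 and Cxcl5 the limit was reached through a single array, sedentary replicate 5. Their mean over the other 13 arrays was 272.8 and 91.2.

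The mice were males of C57BL/6, a widely used inbred strain, at 12 weeks of age, and the labels give no transgene, deletion or drug for either group. In the exercised group (7 arrays) mice had spent 11 days in wheel cages, where they could run, and the sedentary controls (7 arrays) carry the same 11 days on their labels. Each array gave a linear signal per probe set, scaled by the submitters to the same mean on every array. The labels do not say whether the arrays came from separate mice, so the p-values below reflect only how far these samples differ from each other, which may be technical in part.

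Chemokines are small secreted or membrane-tethered proteins that direct the migration of leukocytes through G protein-coupled receptors, and several ligands share a receptor. Inflammatory chemokines are induced in macrophages, stromal cells and adipocytes by cytokines, whereas homeostatic chemokines such as Cxcl12 and Cxcl13 are made steadily and place cells within a tissue or lymph node. In adipose tissue, Ccl2 and its receptor Ccr2 are best known for drawing monocytes into the tissue during obesity. Atypical receptors (Ackr1 to Ackr4) bind chemokines and remove or transport them without the usual signalling.

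Some arrays stood apart from the rest of their group in markers of other cell types, and they are named beside each result they touch. The adipocyte hormone Adipoq was between 48832 and 69118 on the 14 arrays. On sedentary replicate 5 the mean log2 level of the neutrophil markers was 12.15, against 9.65 to 10.94 on the other sedentary and 9.39 to 10.20 on the exercised arrays, and the mean of the adipocyte markers was the lowest of the 14 (13.80 against 14.48 to 15.12). On sedentary replicate 7, exercised replicate 5 and exercised replicate 7 the B cell markers averaged 8.94, 8.90 and 9.67, below the 11.44 to 13.09 of the other 11 arrays. Sedentary replicate 7 also had mesothelial markers at 12.19 against 7.88 to 9.05 elsewhere, from 3 tested genes of 6 listed. Of these, Upk3b and Lrrn4 passed the limit only through sedentary replicate 7, which fixed that they were high there. The remaining one, Upk1b, read 3199 there and at most 968.6 on the other arrays. Skeletal muscle markers ranged from 8.37 to 13.48 on sedentary and from 8.51 to 15.40 on exercised arrays. All 12 of them had a positive difference between the groups (median 2.86 on the log2 scale). At a p under 0.05, 8 passed unadjusted and 0 adjusted, where 11.3% and 4% of all genes were higher. The part of the muscle markers in the chemokine results was not tested. In whole tissue, fewer cells of a type and less RNA per cell cannot be told apart.

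**Figure D1:**
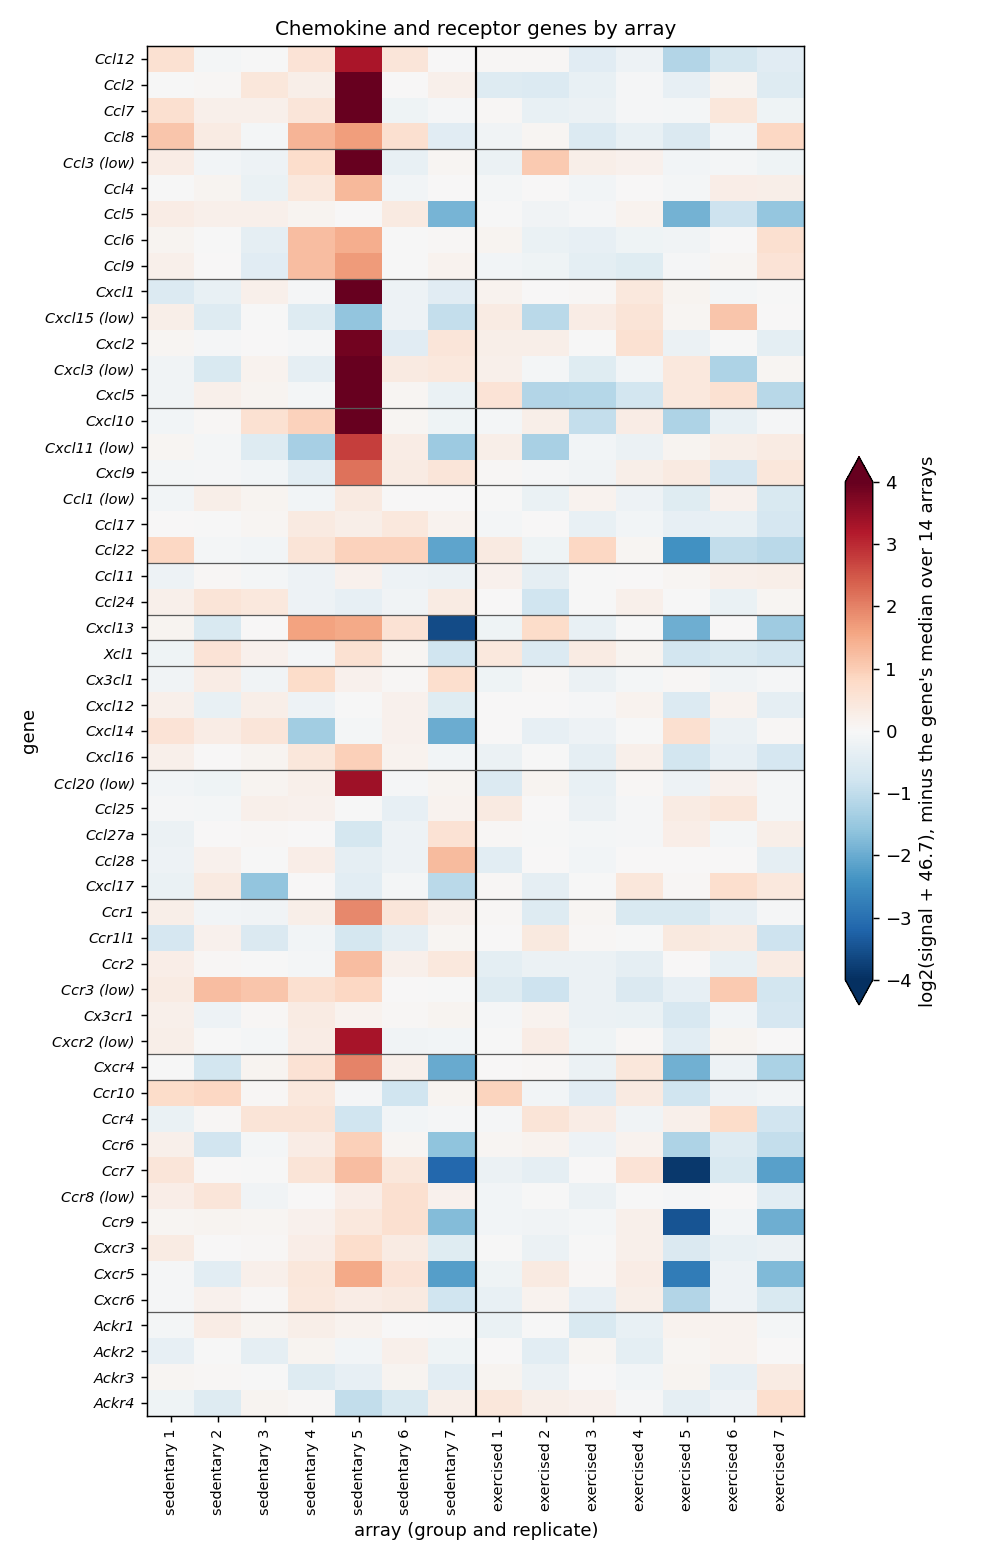
Level of each of the 53 genes (rows, grouped by role between the horizontal lines; low marks the 9 untested genes) on the 14 arrays (columns), as log2(signal + 46.7) minus the median of that gene over all arrays; the colour scale ends at 4 in either direction, so larger deviations share the darkest colour. Sedentary 5 is dark red for Ccl2, Ccl7, Ccl12, Ccl3, Cxcl1, Cxcl2, Cxcl3, Cxcl5 and Cxcl10, and sedentary 7, exercised 5 and exercised 7 are blue for Ccl5, Ccl22, Cxcl13, Cxcr4 and most lymphocyte receptors.

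None of the 44 tested genes differed between exercised and sedentary tissue at an adjusted p under 0.05, either in the lower direction, where 1.53% of the 12944 genes tested passed, or in the higher direction, where 4% passed. Differences were exercised minus sedentary on the scale of log2(signal + 46.7), tested with limma and adjusted over all genes tested by the Benjamini-Hochberg method. Leaving out sedentary replicate 5 likewise gave 0 lower and 0 higher (1.71% and 3.84% of all genes). At an unadjusted p under 0.05, 9 chemokine genes had a negative and 1 a positive difference, or 20.5% and 2.27% of the 44, against 10.5% and 11.3% of all genes. The 9 were Ccl8, Ccl12, Ccl17, Cx3cl1, Cxcl16, Ccr1, Ccr2, Cx3cr1 and Cxcr3, and the positive one was Cxcl17. Without sedentary replicate 5 the counts were 7 negative and 3 positive (15.9% and 6.82%, against 10.2% and 10.2% of all genes). A p above the threshold does not show that the groups were equal.

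In no tested member, by its chosen probe set, did the 7 exercised arrays lie wholly apart from the 7 sedentary arrays, whereas 0.734% of all genes tested had every exercised array below every sedentary array and 1.95% had the opposite. The median difference of the 44 genes was -0.37, and it was -0.39 for ligands and -0.34 for receptors, beside -0.03 for all genes. Of the 44 genes 34 (77.3%) had a negative difference, compared with 55% of all genes. Without sedentary replicate 5 the median moved to -0.26 (ligands -0.26, receptors -0.25, all genes -0.03) and 30 genes (68.2%) were negative, compared with 57% of all genes. Ccl4, Cxcl1, Cxcl2 and Cxcl9 changed sign between these fits.

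**Figure D2:**
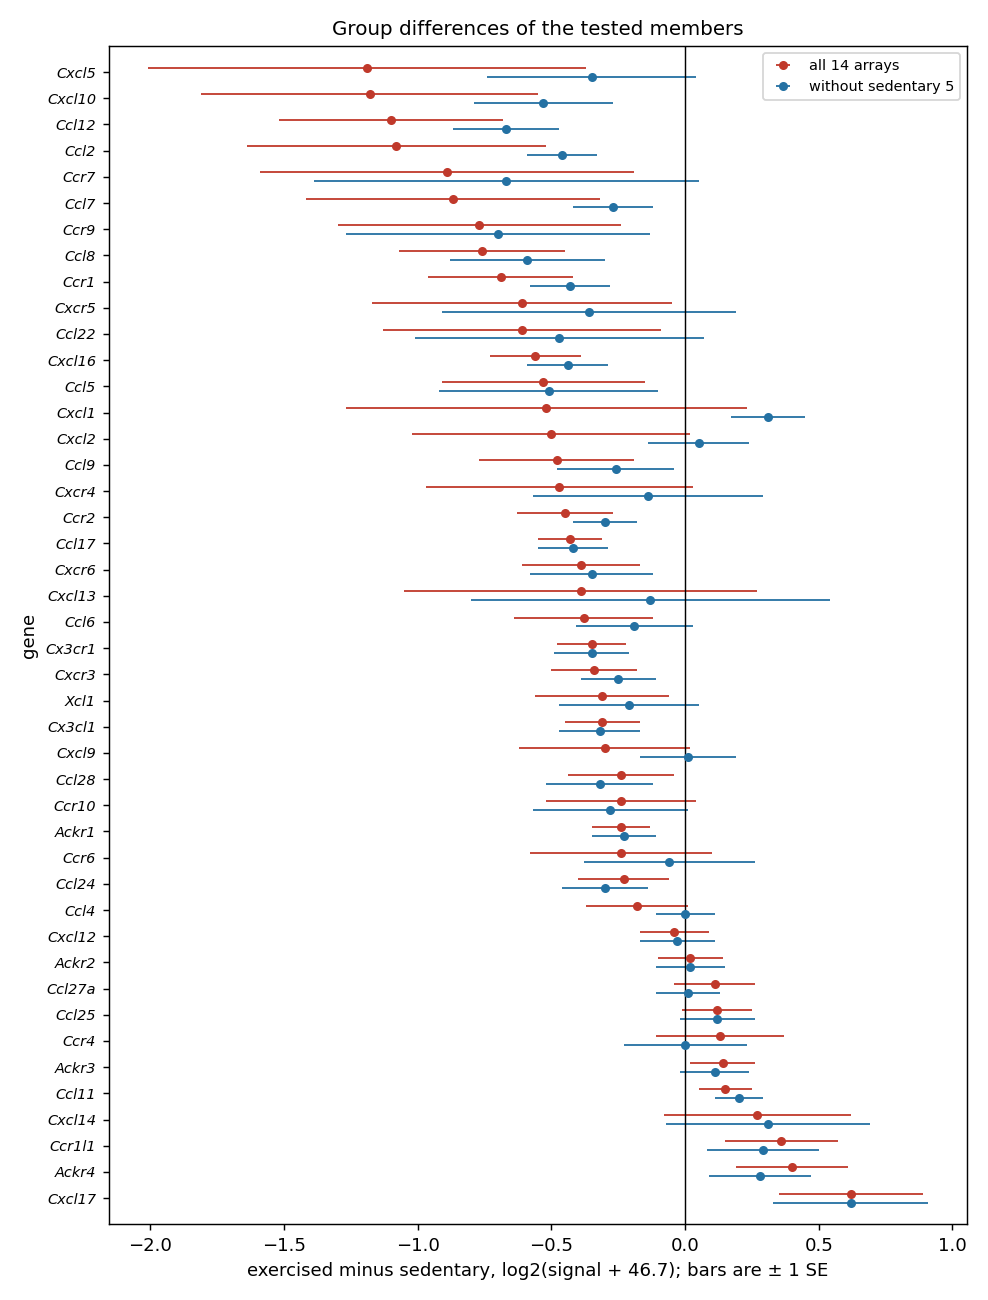
Exercised minus sedentary difference of each tested gene on the scale of log2(signal + 46.7), with bars of 1 standard error either side, from all 14 arrays (red) and without sedentary replicate 5 (blue). Most points lie left of 0, and the bars of Ccl2, Ccl7, Ccl12, Cxcl1, Cxcl2, Cxcl5 and Cxcl10 are more than 2 times as long with that array as without it.

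Sedentary replicate 5 set the range of many of these genes. It had the highest of the 14 signals for 28 of the 53 genes (20 ligands and 8 receptors), and for 22 of the 44 tested genes, against 2984 (23.1%) of all 12944 genes tested. This array also had the lowest signal for 24.9% of all genes and for 6.82% of the tested chemokine genes. With the pseudocount added, 8 of the 44 (18.2%) were more than 4-fold above the median of the other 6 sedentary arrays there, namely Ccl2, Ccl7, Ccl12, Cxcl1, Cxcl2, Cxcl5, Cxcl9 and Cxcl10, against 70 of all genes tested (0.541%). Of these 8, Cxcl2 and Cxcl5 had passed the limit only through this array, which fixed that they were high on it. Among genes that reached the limit on the other 13 arrays, 6 of 42 members (14.3%) and 61 of 12890 genes (0.473%) were more than 4-fold above. The 8 are ligands of CCR2, CXCR2 and CXCR3. The neutrophil marker list (10 of 13 listed genes tested, none at 0) summed to 88162 signal units on this array, against 12307 to 29066 on the other 6 sedentary and 9167 to 15991 on the exercised arrays. The largest parts of that sum were S100a8 (29899) and S100a9 (28938). All tested genes of the list were highest on this array except Il1r2, which read 4074 there and up to 8360 elsewhere. The part of neutrophils in the chemokine signals was not tested.

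The genes grouped here as ligands of CCR2, a receptor of monocytes, were negative in all 4 members with and without that array. Ccl2, the chief monocyte attractant, had a lowest, median and highest signal of 829.2, 973.5 and 19518 on the sedentary arrays and of 556.8, 661.5 and 914.4 on the exercised arrays. Sedentary replicate 5 held the value of 19518, 21.3 times the median of the other 6, whose highest was 1161. Apart from exercised replicate 6, each exercised array lay below the lowest sedentary array. The difference was -1.08 (SE 0.56, adjusted p = 0.276) on 14 arrays and -0.46 (SE 0.13, adjusted p = 0.0537) without sedentary replicate 5. Without it the difference was smaller and its error much smaller still.

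Ccl12, a close relative of Ccl2 in the mouse, ran from 1024 to 10839 (median 1537) in sedentary and from 455.4 to 1123 (median 784.5) in exercised tissue. Its highest value again came from sedentary replicate 5, the other 6 sedentary arrays ended at 1693, and 5 of the 7 exercised arrays lay below all sedentary ones. The difference was -1.10 (SE 0.42, adjusted p = 0.146), and -0.67 (SE 0.20, adjusted p = 0.0625) without that array. Ccl7, which also attracts monocytes, was at 15161 on sedentary replicate 5, between 569.6 and 1041 on the other 6 and between 523.6 and 898.3 on exercised arrays, and these last ranges overlapped for most of their length. Its difference went from -0.87 (SE 0.55, adjusted p = 0.378) to -0.27 (SE 0.15, adjusted p = 0.349).

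Ccl8 differed from the other genes grouped here with CCR2 in that sedentary replicate 5 was not far above the other sedentary arrays. Its sedentary signals had a lowest value of 8328, a median of 17580 and a highest of 36300, and its exercised signals 7564, 10301 and 20028. Sedentary replicates 1 and 4 (24686 and 28903) were high as well, and exercised replicate 7 (20028) was the only exercised array above the sedentary median. The difference was -0.76 (SE 0.31, adjusted p = 0.166) and -0.59 (SE 0.29, adjusted p = 0.262) without sedentary replicate 5. The macrophage markers, 15 of 15 tested, averaged 13.38 and 13.56 on sedentary replicates 4 and 5, 12.68 to 13.02 on the other sedentary and 12.54 to 13.03 on the exercised arrays. In sum they reached 148498 to 234616 in sedentary and 138107 to 193673 in exercised tissue. Of the 15, 1 fell, Tyrobp (-0.52, SE 0.15, adjusted p = 0.0482), where 1.53% of all genes did. The part of the macrophage markers in the signals of these CCR2 group genes was not tested.

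**Figure D3:**
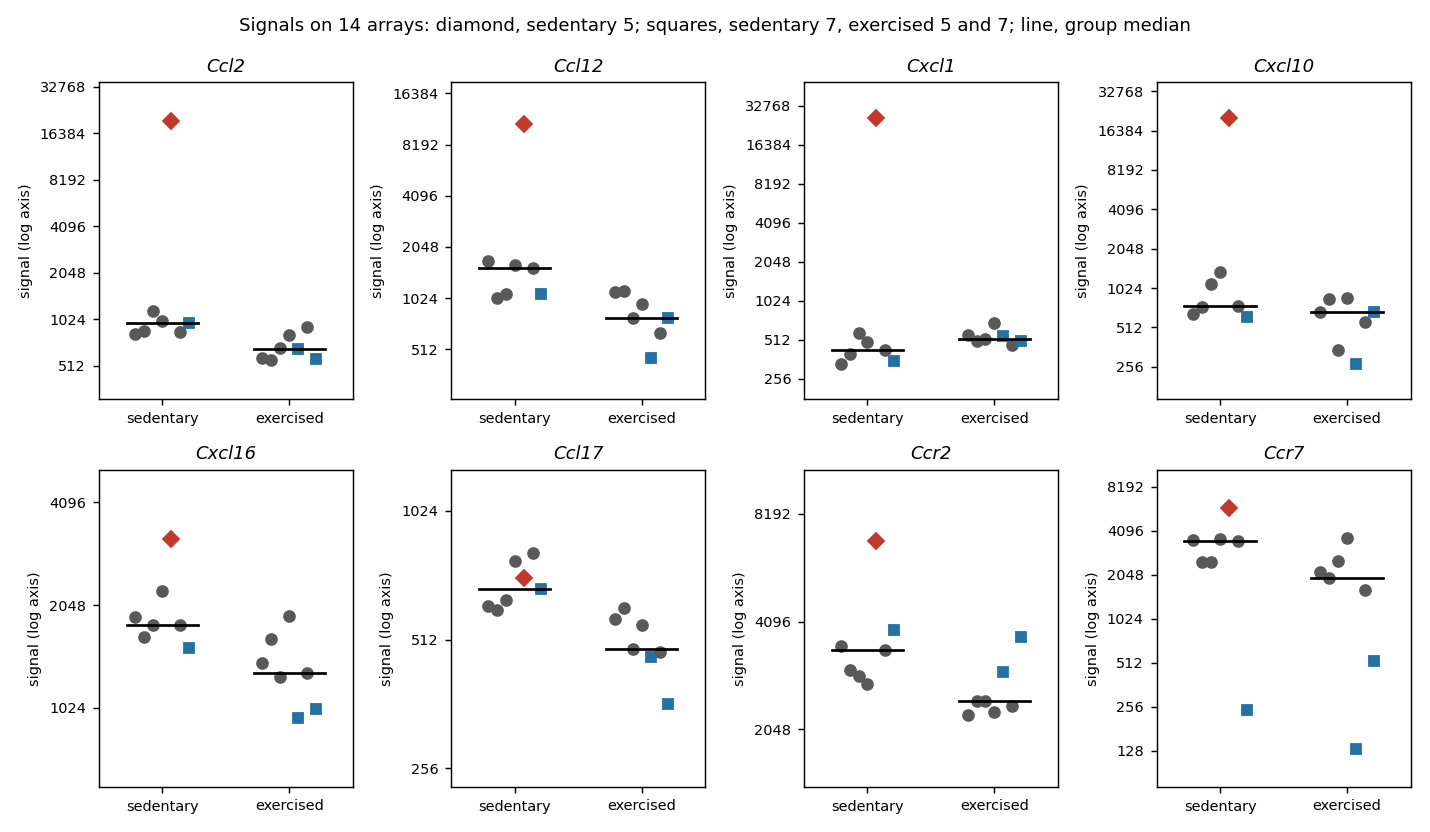
Signals of 8 genes on each sedentary and exercised array, on log axes; the red diamond is sedentary replicate 5, blue squares are sedentary replicate 7 and exercised replicates 5 and 7, and lines are group medians. The diamond lies far above its group for Ccl2, Ccl12, Cxcl1 and Cxcl10 and within it for Ccl17, while the squares are the lowest points for Ccr7.

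Of the 53 genes, the CXCR2 ligands Cxcl5 and Cxcl1, which recruit neutrophils, had the largest ratios of sedentary replicate 5 to the median of the other 6 sedentary arrays. Cxcl1 reached 26613 there, 64.1 times that median. The other 6 sedentary arrays lay between 332.3 and 582.1, and the exercised arrays lay between 471.8 and 691.3. Cxcl5 stood at 8289 (82.8 times), against 74.4 to 120.3 on the other sedentary and 17.7 to 175.6 on the exercised arrays. Cxcl2 stood at 4423, against 178.0 to 377.5 and 187.8 to 417.0. For these 3 genes the other 6 sedentary arrays and the exercised arrays overlapped. Cxcl2 and Cxcl5 had passed the limit only through sedentary replicate 5, which fixed that they were high there.

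The low-signal gene Cxcl3 was at 3162 on sedentary replicate 5 and at no more than 132.8 elsewhere. Cxcr2, the neutrophil receptor of these ligands and also below the limit, was at 1258 there and between 53.0 and 119.4 on the other 13 arrays. Cxcl15, a lung-expressed relative, was the exception: sedentary replicate 5 had its lowest signal, 54.9.

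The group difference of the CXCR2 ligands rested on that array. For Cxcl1 it was -0.52 (SE 0.75, adjusted p = 0.716) with the array and 0.31 (SE 0.14, adjusted p = 0.215) without it. Exercised arrays were above the sedentary median of 430.6 in 7 of 7 cases, and of the other 6 sedentary arrays only replicate 3 exceeded the exercised median of 518.2. The positive sign without the array, and the size of the peak on it, depended on the probe set of Cxcl1. The second, 1441855_x_at, read 7341 on sedentary replicate 5 and 1257 to 2705 on the other 13 arrays, with a difference of -0.26 (SE 0.18, adjusted p = 0.496 over all probe sets) without that array. The third, 1457644_s_at, read 14029 there and at most 1882 elsewhere, with a difference of 0.06 (SE 0.16, adjusted p = 0.886) without it. Cxcl2 went from -0.50 (SE 0.52, adjusted p = 0.600) to 0.05 (SE 0.19, adjusted p = 0.910), and Cxcl5 from -1.19 (SE 0.82, adjusted p = 0.416) to -0.35 (SE 0.39, adjusted p = 0.657).

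Promoter sequences of genes that peaked together on sedentary replicate 5 are shown because Cxcl1, Cxcl2 and Cxcl3 carry the same block of letters, and because Cxcl10 holds both motifs searched for. The sequences are the 250 bases before the annotated start, from RefSeq in build GRCm38.p6, and 40 of the 53 genes had such an entry. Capitals mark matches on either strand to the consensus of NF-kB, a transcription factor activated by inflammatory cytokines, or to GAAA, any 2 bases and GAAA again, a core of the interferon response element. Cxcl1 (chr5:90890995-90891244), Cxcl2 (chr5:90903649-90903898) and Cxcl3 (chr5:90785851-90786100) are on the plus strand and Cxcl10 (chr5:92348890-92349139) on the minus strand, each read 5′ to 3′ along its gene.
Cxcl1: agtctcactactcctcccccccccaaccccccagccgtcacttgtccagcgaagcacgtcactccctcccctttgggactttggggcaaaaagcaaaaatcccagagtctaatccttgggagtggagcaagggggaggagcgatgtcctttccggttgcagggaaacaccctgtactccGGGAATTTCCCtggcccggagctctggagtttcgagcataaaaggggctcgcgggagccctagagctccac
Cxcl2: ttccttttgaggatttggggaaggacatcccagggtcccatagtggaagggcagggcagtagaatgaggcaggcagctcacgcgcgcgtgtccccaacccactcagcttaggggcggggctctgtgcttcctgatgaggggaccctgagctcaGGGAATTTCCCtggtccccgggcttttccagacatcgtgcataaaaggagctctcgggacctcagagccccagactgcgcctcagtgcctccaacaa
Cxcl3: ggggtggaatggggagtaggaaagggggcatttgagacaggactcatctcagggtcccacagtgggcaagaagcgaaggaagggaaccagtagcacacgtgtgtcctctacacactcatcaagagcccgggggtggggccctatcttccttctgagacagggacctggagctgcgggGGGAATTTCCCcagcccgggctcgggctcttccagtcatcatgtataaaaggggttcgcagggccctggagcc
Cxcl10: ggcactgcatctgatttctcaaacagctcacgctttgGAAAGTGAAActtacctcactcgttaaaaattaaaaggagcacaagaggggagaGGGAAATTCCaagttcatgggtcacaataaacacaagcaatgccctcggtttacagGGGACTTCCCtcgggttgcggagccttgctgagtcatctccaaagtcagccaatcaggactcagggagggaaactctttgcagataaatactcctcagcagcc
In Cxcl1, Cxcl2 and Cxcl3 the capitals are the same 11 letters, GGGAATTTCCC, in which 2 matches to the NF-kB consensus overlap, starting 71, 97 and 73 bases before the start. In Cxcl10 GAAAGTGAAA starts 213 bases before it, followed by GGGAAATTCC at 159 and GGGACTTCCC at 103, and no match there overlaps another.

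Over windows of 250 bases before to 50 after the start, the NF-kB consensus was present in 10 of the 40 member genes and in 4.51% of all 32851 windows. Of the genes with their highest signal on sedentary replicate 5 it was found in 7 of 20, Ccl9, Ccl20, Cxcl1, Cxcl2, Cxcl3, Cxcl10 and Ccr6, and of the other members in 3 of 20, Ackr2, Ccl27a and Ccr3. The interferon motif was present in Cxcl10 and Cxcl14 and in 3.44% of all windows. These are matches of letters and not measured binding.

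The ligands of CXCR3, which interferon induces and which attract activated T and NK cells, had the same array on top. Cxcl10 was at 20533 on sedentary replicate 5, 27.8 times the median of the other 6 sedentary arrays, which ran from 613.3 to 1351, and at 268.6 to 865.7 on exercised arrays. Its difference was -1.18 (SE 0.63, adjusted p = 0.286) and -0.53 (SE 0.26, adjusted p = 0.280) without that array, with 3 exercised arrays below all sedentary ones. Cxcl9 was at 16028 there, between 2595 and 4974 on the other 6 and between 2214 and 4870 on exercised arrays, and these last ranges overlapped for most of their length. Its difference changed from -0.30 (SE 0.32, adjusted p = 0.613) to 0.01 (SE 0.18, adjusted p = 0.988). Cxcl11, below the limit, read 2115 on that array and at most 350.7 on the others.

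Among Ccl3, Ccl4, Ccl5, Ccl6 and Ccl9, which attract monocytes and other leukocytes, Ccl6 and Ccl9 were highest on the same pair of arrays. Ccl6 was at 30159 and 35430 on sedentary replicates 4 and 5, while the remaining sedentary arrays began at 10117 and its sedentary median was 13422. On exercised arrays it ran from 10164 to 20238 with a median of 11799, inside the sedentary range. Ccl9 followed with 25168 and 34825 on those arrays, a sedentary median of 11635 and an exercised range of 7642 to 15693. Their differences were -0.38 (SE 0.26, adjusted p = 0.422) and -0.48 (SE 0.29, adjusted p = 0.344), and -0.19 (SE 0.22, adjusted p = 0.661) and -0.26 (SE 0.22, adjusted p = 0.551) without sedentary replicate 5.

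Ccl4, made by activated macrophages and T cells, was even across the arrays, between 848.4 and 1403 on the other 6 sedentary and between 937.6 and 1254 on the exercised arrays, with 2566 on sedentary replicate 5. Its difference of -0.18 (SE 0.19, adjusted p = 0.618) went to 0.00 (SE 0.11, adjusted p = 0.990) without that array. Ccl3, which usually accompanies Ccl4, was below the limit and at 20.9 to 126.1 on 13 arrays, against 1531 on sedentary replicate 5. Ccl5, made mainly by T and NK cells, did not peak on that array (9393 within a sedentary range of 2535 to 12071). Its 3 lowest arrays were exercised replicate 5 (2461), sedentary replicate 7 (2535) and exercised replicate 7 (3169), and its difference was -0.53 (SE 0.38, adjusted p = 0.447).

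Of the ligands of CCR4 and CCR8, which guide T helper and regulatory T cells, Ccl17 had the smallest unadjusted p of the tested members on 14 arrays (0.00278). Without sedentary replicate 5 its unadjusted p was 0.0052, above those of Ccl2 (0.0031) and Ccl12 (0.00415). Its sedentary signals were 598.9 at the lowest, 673.2 at the median and 818.2 at the highest, and its exercised signals 361.8, 485.8 and 607.2. Exercised replicate 2, at 607.2, was the only exercised array above the lowest sedentary array, sedentary replicate 2, and sedentary replicate 5 (712.2) lay within its group. The difference was -0.43 (SE 0.12, adjusted p = 0.0501), and -0.42 (SE 0.13, adjusted p = 0.0717) without sedentary replicate 5. Leaving out exercised replicate 2, the overlapping array, instead gave -0.47 (SE 0.12, adjusted p = 0.0395), past the threshold. Leaving out any other single array did not bring Ccl17 past it.

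Ccl22, which shares CCR4 with Ccl17 and is made by dendritic cells and macrophages, spread much more widely, from 213.1 to 2100 in sedentary and from 162.2 to 1953 in exercised tissue. Its 3 lowest arrays were the same as for Ccl5, and its difference was -0.61 (SE 0.52, adjusted p = 0.522), or -0.47 (SE 0.54, adjusted p = 0.664) without sedentary replicate 5. The CCR8 ligand Ccl1 (165.7 to 371.1) and Ccr8 itself (19.6 to 91.9) were below the limit on average.

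The eosinophil attractants went in opposite directions by small amounts. Ccl11 (eotaxin) ran from 6050 to 8124 in sedentary and from 5606 to 8486 in exercised tissue, with medians of 6183 and 7498. Exercised replicate 2 held the lowest value and the other 6 exercised arrays lay above the sedentary median, with a difference of 0.15 (SE 0.10, adjusted p = 0.384) or 0.20 (SE 0.09, adjusted p = 0.236) without sedentary replicate 5. Ccl24 (eotaxin-2) had medians of 1694 and 1466, and 7 of 7 exercised arrays lay below the sedentary median, at -0.23 (SE 0.17, adjusted p = 0.452). Their receptor Ccr3 was below the limit, with sedentary signals of 79.2 to 253.3 and exercised signals of 24.4 to 60.4 apart from exercised replicate 6 (213.5).

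Among the stromal and membrane-tethered ligands, Cxcl16, a transmembrane chemokine of macrophages and the ligand of CXCR6, had the next smallest unadjusted p on 14 arrays (0.00535). Its sedentary signals had a lowest value of 1529, a median of 1793 and a highest of 3199, and its exercised signals 959.0, 1297 and 1898. Exercised replicates 2 and 4 (1630 and 1898) overlapped the sedentary arrays and the other 5 lay below them. The difference was -0.56 (SE 0.17, adjusted p = 0.0719), or -0.44 (SE 0.15, adjusted p = 0.0978) without sedentary replicate 5, which held the highest value. It passed the threshold without sedentary replicate 7 (-0.61, SE 0.17, adjusted p = 0.0499) and without exercised replicate 4 (-0.64, SE 0.17, adjusted p = 0.0396). These were the lowest sedentary and the highest exercised array, and no other single omission brought it past.

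Cx3cl1 (fractalkine), a tethered ligand of endothelium and adipocytes, had a sedentary range of 660.6 to 1255 (median 845.5) and an exercised range of 622.5 to 765.2 (median 707.1). Sedentary replicates 4 and 7 (1255 and 1221) stood above the rest, and 7 of 7 exercised arrays were below the sedentary median, with a difference of -0.31 (SE 0.14, adjusted p = 0.213). Cxcl12, the stromal ligand that retains leukocytes and progenitors through CXCR4, had medians of 13756 and 14117 and a difference of -0.04 (SE 0.13, adjusted p = 0.885). Its 3 lowest arrays were exercised replicate 5 (9566), sedentary replicate 7 (10031) and exercised replicate 7 (10834). Cxcl14, an abundant chemokine of stroma and epithelium, was low on sedentary replicates 7 and 4 (514.2 and 803.2) and otherwise between 1721 and 3407, at 0.27 (SE 0.35, adjusted p = 0.683).

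The epithelial ligands contained the only tested member with a positive difference at an unadjusted p under 0.05 on 14 arrays. Cxcl17, a mucosal chemokine, ran from 142.6 to 684.6 (median 424.9) in sedentary and from 396.8 to 851.4 (median 543.4) in exercised tissue, with the lowest values on sedentary replicates 3 and 7. Its difference was 0.62 (SE 0.27, adjusted p = 0.193), and 0.62 (SE 0.29, adjusted p = 0.238) without sedentary replicate 5. Ccl28, of mucosal and mammary epithelium, read 2282 on sedentary replicate 7 and at most 1130 on any other array. That array also had the highest mean of the mammary epithelial markers (10.01, against 8.60 to 9.68). Of these, Krt8 (3252), Krt18 (2048) and Epcam (1904) were highest there. Krt5 (250.3), Krt14 (531.4), Csn2 (388.3) and Cdh1 (1162) were not, and reached 3703, 674.0, 610.6 and 1327 on other arrays. Krt18, at most 790.9 elsewhere, had passed the limit only through sedentary replicate 7, which fixed that it was high there. The mesothelial markers given above were high there as well. The part of either list in the Ccl28 signal was not tested.

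Ccl25, the ligand of CCR9, and Ccl27a, a skin chemokine, had differences of 0.12 (SE 0.13, adjusted p = 0.600) and 0.11 (SE 0.15, adjusted p = 0.691), each with broadly overlapping groups by its chosen probe set. The other probe set of Ccl25 (1418777_at) was below the limit, with a mean of 264.8. It read 46.0 to 310.9 (median 173.4) on sedentary and 270.5 to 475.6 (median 356.5) on exercised arrays. Ccl20, the ligand of CCR6, was below the limit with 44.3 to 104.7 on 13 arrays, and 1349 on sedentary replicate 5.

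Many chemokine and receptor genes of lymphocytes were lowest on the arrays that were lowest in lymphocyte markers, which belong to both groups. For 11 of the 44 tested genes (25.0%) the 3 lowest signals were those of sedentary replicate 7 and exercised replicates 5 and 7, against 5.82% of all genes tested. These were Ccl5, Ccl22, Cxcl12, Cxcl13, Xcl1, Ccr6, Ccr7, Ccr9, Cxcr4, Cxcr5 and Cxcr6. The B cell markers (8 of 9 listed tested) summed to 4339 to 96874 on sedentary and 4032 to 50921 on exercised arrays, and the T and NK cell markers (10 of 13) to 5094 to 32275 and 4312 to 25389. None was at 0 on any array, and their 3 lowest mean log2 levels came from these arrays. Markers of lymph node stroma also averaged 8.83, 8.89 and 9.06 there and 10.14 to 11.09 on the other 11. Their part in the chemokine signals was not tested.

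Cxcl13, which draws B cells into follicles, is a ligand with this pattern. It read 626.3 on sedentary replicate 7, 2010 on exercised replicate 5 and 2922 on exercised replicate 7, and between 5153 and 24369 on the other arrays. The groups overlapped widely (medians 8588 and 7003), with a difference of -0.39 (SE 0.66, adjusted p = 0.765). Leaving out 1 array moved it by over 1.5 times in either direction, from -0.97 without sedentary replicate 7 to -0.11 without sedentary replicate 4, with -0.13 without sedentary replicate 5, -0.14 without exercised replicate 5 and -0.23 without exercised replicate 7. Xcl1, a ligand made by T and NK cells, read between 249.3 and 262.8 on those arrays and 287.4 to 744.8 elsewhere, at -0.31 (SE 0.25, adjusted p = 0.504). For each of the 11 genes the difference was more negative without sedentary replicate 7 and less negative, or 0 and above for Cxcl12, without exercised replicate 5 or 7.

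Of the lymphocyte receptors, Ccr7 guides T cells and dendritic cells into lymph nodes. It read 131.5 on exercised replicate 5, 242.5 on sedentary replicate 7, 523.7 on exercised replicate 7 and 1618 to 5926 on the other 11 arrays. Its medians were 3498 in sedentary and 1963 in exercised tissue, and its difference was -0.89 (SE 0.70, adjusted p = 0.484), or -0.67 (SE 0.72, adjusted p = 0.643) without sedentary replicate 5. Cxcr5, the receptor of Cxcl13 on B cells, read 166.6, 275.7 and 390.1 on the same arrays in that order and 1057 to 4193 on the others, at -0.61 (SE 0.56, adjusted p = 0.551), or -0.36 (SE 0.55, adjusted p = 0.754) without sedentary replicate 5. Ccr9, a receptor of gut-homing lymphocytes, read 25.7 to 190.1 there and 676.7 to 1183 elsewhere, at -0.77 (SE 0.53, adjusted p = 0.421).

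Ccr6, on B cells and T helper cells, ran from 711.3 to 1129 on these arrays and from 1314 to 4395 on the others, and Cxcr6, the receptor of Cxcl16, from 675.7 to 1016 and from 1249 to 2156. Their differences were -0.24 (SE 0.34, adjusted p = 0.707) and -0.39 (SE 0.22, adjusted p = 0.321), and -0.06 (SE 0.32, adjusted p = 0.936) and -0.35 (SE 0.23, adjusted p = 0.430) without sedentary replicate 5. Cxcr3, the receptor of Cxcl9 and Cxcl10 on activated T cells, lay between 1309 and 3034 (median 2219) in sedentary and between 1220 and 2113 (median 1558) in exercised tissue. In 7 of 7 exercised arrays it was below the sedentary median, with a difference of -0.34 (SE 0.16, adjusted p = 0.228) or -0.25 (SE 0.14, adjusted p = 0.365) without sedentary replicate 5. Ccr4 and Ccr10, T cell receptors with weak signals, had medians of 387.7 and 385.8 in sedentary and 467.9 and 324.9 in exercised tissue, with adjusted p of 0.783 and 0.638.

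Cxcr4, the receptor of Cxcl12, which most leukocytes carry, combined both patterns. It peaked on sedentary replicate 5 at 8225, read 473.1, 504.5 and 818.6 on sedentary replicate 7, exercised replicate 5 and exercised replicate 7, and stayed between 1197 and 3076 on the other 10. Its difference was -0.47 (SE 0.50, adjusted p = 0.611) and -0.14 (SE 0.43, adjusted p = 0.884) without sedentary replicate 5.

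**Figure D4:**
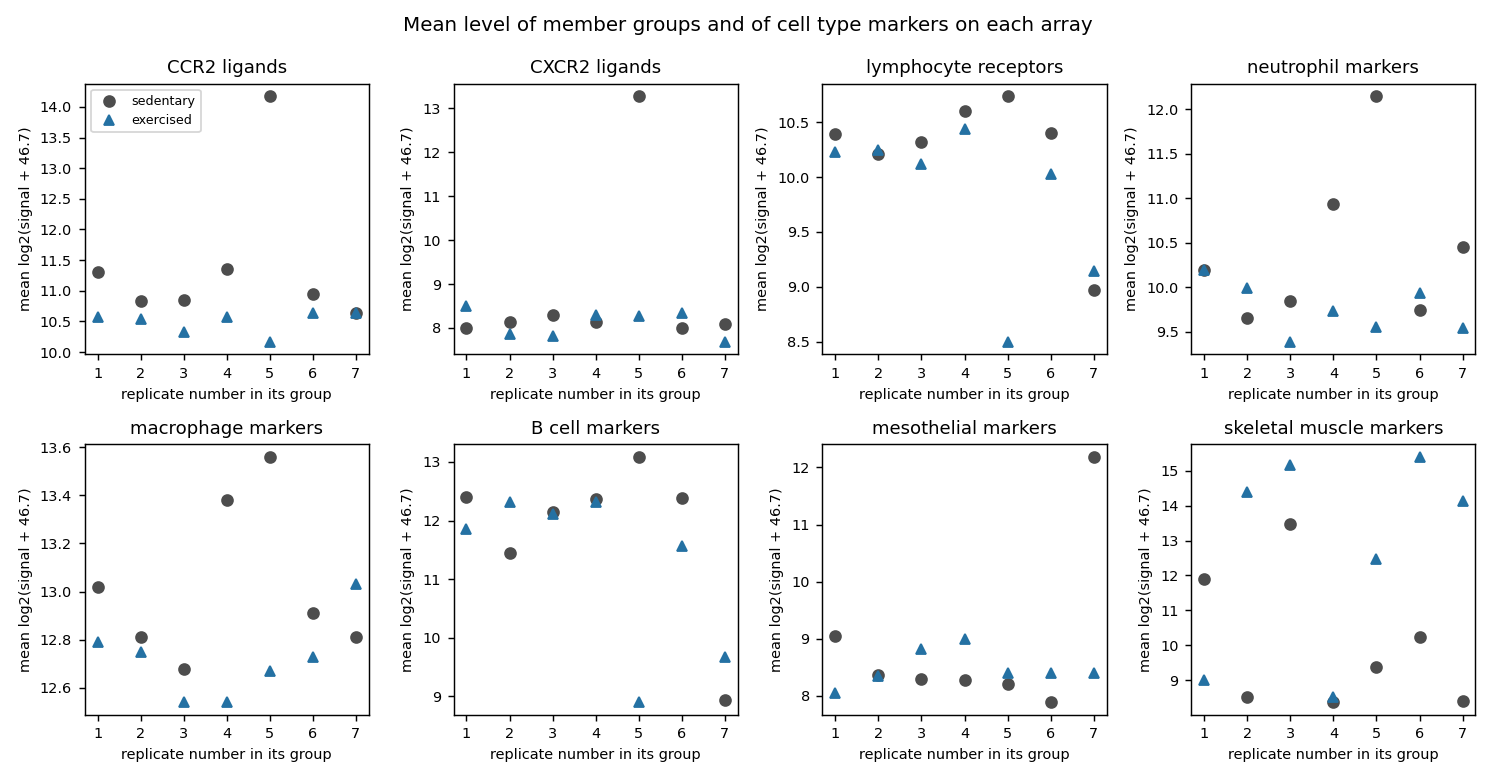
Mean log2(signal + 46.7) on each array of 3 groups of tested chemokine genes and of 5 lists of cell type markers, for sedentary (circles) and exercised (triangles) arrays. Replicate numbers are used only to name arrays, and the labels do not say whether they pair them. The groups of CCR2 and CXCR2 ligands and the neutrophil markers are highest on sedentary 5. Of the 3 tested CXCR2 ligands, Cxcl2 and Cxcl5 passed the limit only through sedentary 5, which fixed that they were high there. The lymphocyte receptors and B cell markers are lowest on sedentary 7, exercised 5 and exercised 7. Muscle markers are highest on exercised 2, 3, 6 and 7 and on sedentary 3.

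None of the 4 tested receptors of monocytes and macrophages passed the adjusted threshold. A negative difference with an unadjusted p under 0.05 was found for 3 of the 4 with and without sedentary replicate 5 (10.5% and 10.2% of all genes). Without sedentary replicates 5 and 7 the differences were -0.42 for Ccr1 (adjusted p = 0.139) and -0.25 for Ccr2 (adjusted p = 0.251). In that fit Cx3cr1 was at -0.34 (adjusted p = 0.209) and Ccr1l1 at 0.36 (adjusted p = 0.348). Ccr2, the receptor of Ccl2, had sedentary signals of 2748 at the lowest, 3400 at the median and 6866 at the highest, and exercised signals of 2240, 2456 and 3710. Exercised replicates 5 and 7 (2963 and 3710) overlapped the sedentary arrays and the other 5 lay below them. The difference was -0.45 (SE 0.18, adjusted p = 0.155) and -0.30 (SE 0.12, adjusted p = 0.177) without sedentary replicate 5, which held the 6866.

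Ccr1, a receptor of Ccl3 to Ccl9 on monocytes and neutrophils, ran from 1054 to 4574 (median 1373) in sedentary and from 740.0 to 1232 (median 917.2) in exercised tissue. In 7 of 7 exercised arrays it was below the sedentary median, and in 4 below all sedentary arrays. The difference was -0.69 (SE 0.27, adjusted p = 0.147), and -0.43 (SE 0.15, adjusted p = 0.108) without sedentary replicate 5. Cx3cr1, the fractalkine receptor of monocytes and resident macrophages, had medians of 802.2 and 628.1 and was below all sedentary arrays in 4 of the 7 exercised arrays. Its difference was -0.35 (SE 0.13, adjusted p = 0.140) and -0.35 (SE 0.14, adjusted p = 0.185). Ccr1l1, a relative of Ccr1, went the other way at 0.36 (SE 0.21, adjusted p = 0.322).

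The 4 atypical receptors had adjusted p-values between 0.231 and 0.929. Ackr1, the Duffy receptor of venular endothelium, ran from 3603 to 4695 (median 4166) in sedentary and from 2495 to 4246 (median 3612) in exercised tissue, with 3 exercised arrays below all sedentary ones and a difference of -0.24 (SE 0.11, adjusted p = 0.231). Ackr3, a scavenger of Cxcl12, had medians of 10779 and 11251 and a difference of 0.14 (SE 0.12, adjusted p = 0.539). Ackr2, a scavenger of inflammatory CC chemokines, was at 0.02 (SE 0.12, adjusted p = 0.929). Ackr4, which takes up the homeostatic chemokines of lymphoid tissue, was weak and variable (214.9 to 767.1), at 0.40 (SE 0.21, adjusted p = 0.283).

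Other probe sets of the same genes gave a partly different picture for Cxcl1 and, below the limit, Ccl25, as above, and for Ccr2, Cxcl16 and Cxcl12. Of 32 other probe sets 15 passed the limit, and 13 of these had the sign of the chosen one. In a fit over all 27022 probe sets above the limit, 2 of the 15 were lower and 1 higher at an adjusted p under 0.05, where 1.05% and 2.78% of all probe sets were. Without sedentary replicate 5 the counts were 1 and 1 (1.26% and 2.75% of all probe sets).

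Of the 3 other tested probe sets of Ccr2, 1421188_at had a difference of -0.35 (SE 0.15, adjusted p = 0.193) and 1460067_at of -0.50 (SE 0.19, adjusted p = 0.146), and neither passed. The one that passed (1421187_at) ran from 784.7 to 2092 (median 947.3) on sedentary and from 320.9 to 884.3 (median 536.5) on exercised arrays. It fell by 0.90 (SE 0.22, adjusted p = 0.0322), and by 0.74 (SE 0.18, adjusted p = 0.0332) without sedentary replicate 5. That of Cxcl16 (1449195_s_at) ran from 817.8 to 2181 and from 343.7 to 1032, and fell by 0.93 (SE 0.23, adjusted p = 0.0362). Without sedentary replicate 5 its difference was -0.82 (SE 0.23, adjusted p = 0.058). The second probe set of Cxcl12 (1417574_at) rose by 0.49 (SE 0.11, adjusted p = 0.0255), and by 0.41 (SE 0.09, adjusted p = 0.0191) without that array. Its exercised signals, 6230 to 7876, all lay above the sedentary signals, 3493 to 6062, while the chosen Cxcl12 probe set had overlapping groups and the opposite sign.

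Of 30 members in 7 runs of neighbouring chemokine genes, 19 peaked on sedentary replicate 5, beside 28 of all 53 members. In the order of the assembly GRCm38.p6, 5 of the 6 genes from Ccl2 to Ccl1 (Ccl2, Ccl7, Ccl11, Ccl12, Ccl8, Ccl1) peaked on sedentary replicate 5, all but Ccl11. In the run of Ccl5, Ccl9, Ccl6, Ccl3 and Ccl4 it was 4 of 5, with Ccl5 the exception. The run of Cxcl5, Cxcl3, Cxcl15, Cxcl1 and Cxcl2 gave 4 of 5, all but Cxcl15, and Cxcl9, Cxcl10 and Cxcl11 gave 3 of 3. Of the neighbours Ccl22, Cx3cl1 and Ccl17 only Ccl22 peaked there, but the 3 shared a negative difference (median -0.43). In the receptor run Ccr9, Cxcr6, Ccr1, Ccr1l1, Ccr3 and Ccr2 the peak was on that array for Ccr1 and Ccr2, and of Cx3cr1 and Ccr8 neither peaked there.

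Among chemoattractants and related genes whose symbols lay outside the rule for members, 1 of 11 tested genes fell and none rose, where 1.53% and 4% of all genes did. Ccrl2, an atypical receptor that presents chemerin, had medians of 853.1 and 504.1 and fell by 0.70 (SE 0.17, adjusted p = 0.0308), or by 0.66 (SE 0.18, adjusted p = 0.0498) without sedentary replicate 5. Without that array Cmklr1, the signalling receptor of chemerin, fell too, by 0.39 (SE 0.09, adjusted p = 0.0248), whereas with it the difference was -0.33 (SE 0.11, adjusted p = 0.0870). That made 2 of 11 lower without the array, where 1.71% of all genes were. Pf4, a platelet chemokine whose symbol the rule did not cover, was at -0.38 (adjusted p = 0.0822). Rarres2, which encodes chemerin, was at -0.38 (SE 0.17, adjusted p = 0.187) and at -0.50 (SE 0.14, adjusted p = 0.0526).

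Of 20 tested genes that carry the signal of chemokine receptors none passed the threshold, and 19 were negative with a median of -0.26, beside 55% of all genes and a median of -0.03. Without sedentary replicate 5, 18 were negative with a median of -0.17, beside 57% and -0.03. The smallest p among them were those of Arrb1 (-0.24, adjusted p = 0.0705), a beta-arrestin that desensitises receptors, and Fgr (-0.56, adjusted p = 0.0825), a kinase of myeloid cells. Of 14 genes of NF-kB and of the cytokines that induce chemokines, 1 fell and 0 rose, where 1.53% and 4% of all genes did. It was Tnf, which fell by 1.36 (SE 0.35, adjusted p = 0.0358). Its difference was -1.15 (SE 0.32, adjusted p = 0.0504) without sedentary replicate 5. The next smallest p was that of Tnfaip3 (-0.61, SE 0.23, adjusted p = 0.142), at -0.42 (SE 0.17, adjusted p = 0.174) without that array. All 14 were negative (median -0.45), and 10 were without that array (median -0.10). That array held Il6 at 10196, Il1b at 6318 and Socs3 at 21540, while the other 6 sedentary arrays ended at 183.6, 848.9 and 3560. Il6 and Ptgs2, counted among the 14, had passed the limit only through that array, which fixed that they were high there. On exercised arrays they read at most 198.3 and 478.7. Ptgs2 had a difference of -0.22 (SE 0.32) with sedentary replicate 5 and of 0.06 (SE 0.22) without it. Of 8 interferon-response genes none passed. All 8 were negative (median -0.51), and 7 were without sedentary replicate 5 (median -0.31), beside the same 55% and 57% of all genes. The smallest p were those of Ifit3 (-0.68, adjusted p = 0.0664) and Stat2 (-0.56, adjusted p = 0.120).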

How the data were processed

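Biotinylated cRNA, made from total RNA of frozen scWAT with a column kit, was read on Affymetrix arrays. The deposited file holds array intensity in linear units, computed with MAS5 as the submitters' processing notes state, and its settings are not given in the sources used. It covers 45101 probe sets on 14 arrays. After trimming 2% from either end, the mean was 1500 on each array, a scaling that removes differences in total RNA, and array medians ran from 531.3 to 617.4. With 7 arrays in each group, their number limits the precision. There were 0 columns of values without a sample.

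The 64 control probe sets were left out. Platform annotation gave 1 symbol to 34945 probe sets, several to 932 and none to 9160, and 34741 single symbols were matched to current ones through Entrez identifiers; 4 probe sets of chemokine families with several symbols were not named. Signals were transformed as log2(signal + 46.7), 46.7 being the 10th percentile of all values, which understates changes of weak genes. Probe sets with a mean under 389.8 were not tested. The brightest remaining probe set stood for each of 12944 genes. A linear model was fitted to all 14 arrays without covariates (lmFit and eBayes with trend, limma 3.58.1, R 4.3.3). Two-sided p-values were adjusted by the Benjamini-Hochberg method over every gene tested, with a threshold of 0.05. The code was tested on simulated data.

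By the rule for named genes, any member may be named, and from other pathway lists, genes past the threshold and the 2 of smallest p. Il6, Il1b, Socs3, Ptgs2 and Rarres2 were named outside that rule. For groups of 7 the lowest, median and highest signals are given, and the heat map shows each array. The members, gene lists and tests were chosen with earlier results of these data known. Alternatives covered scaling, pseudocount, filter, probe set choice, variance model, weights for arrays, a block for replicate number, and leaving out each array. Leaving out sedentary replicates 5 and 7 together, or the 3 arrays lowest in lymphocyte markers, was chosen after seeing the data, as were the promoters shown.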

Additional observations from a re-analysis of the deposited data

Results flagged for a closer look

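Within each group of 7 arrays, the highest or lowest signal of a gene was singled out where its gap to the next array was large against the range of the group (Dixon's test, at the 95% level). Chance singles out about 1 in 20 groups. This happened in 28 of the 106 groups examined (53 genes in both conditions), 15 of them for sedentary replicate 5. Of all genes tested, 12.5% had such an array among the sedentary and 5.54% among the exercised arrays, and for 6.98% it was sedentary replicate 5.

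Sedentary replicate 5 was far above its group for the ligands Ccl2 (19518), Ccl3 (1531), Ccl7 (15161), Ccl12 (10839), Ccl20 (1349), Cxcl1 (26613), Cxcl2 (4423), Cxcl3 (3162), Cxcl5 (8289), Cxcl9 (16028), Cxcl10 (20533) and Cxcl11 (2115), and for the receptors Ccr1 (4574), Ccr2 (6866) and Cxcr2 (1258). The tested neutrophil markers other than Il1r2, and Il6 and Il1b, were high on the same array, and their part in these values was not tested. Il6 had passed the limit only through that array.

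Sedentary replicate 7 was far below its group for genes of lymphocytes and their attractants, Ccl5 (2535), Ccl22 (213.1), Cxcl13 (626.3), Ccr7 (242.5), Ccr9 (190.1) and Cxcr6 (890.8), and far above it for Ccl28 (2282). Its B and T cell markers were low and its mesothelial markers high, and their part was not tested. Of the 3 mesothelial markers tested, Upk3b and Lrrn4 had passed the limit only through this array.

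Among exercised arrays, replicate 2 was high for Ccl3 (126.1) and low for Ccl11 (5606) and Cxcl11 (83.5), replicate 5 was high for Cxcl14 (3407), replicate 6 was high for Ccr3 (213.5) and replicate 7 was low for Ccr1l1 (269.2).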

How the results depend on the processing

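The median differences of ligands and receptors kept their sign under the 26 alternatives. Of 1131 differences of single members recomputed, 1095 kept their sign and their side of the threshold, 8 passed the threshold only in the alternative and 28 changed sign, all of these 28 with an adjusted p above 0.05. The count of lower members, 0 with the reported settings, was 1 with a pseudocount of 200 (Ccl17, -0.34, adjusted p = 0.0474), 1 without the variance trend (Ccl17, adjusted p = 0.0351), 2 with each gene averaged over its probe sets (Ccl17, adjusted p = 0.0423, and Cxcl16, adjusted p = 0.0467), and 0 to 1 when 1 array was left out. With that averaging the count of higher members was 1 (Ccl25, 0.60, adjusted p = 0.0495). The average of Ccl25 took in its probe set below the limit, 1418777_at. Over these alternatives the adjusted p ran from 0.0351 to 0.180 for Ccl17 and from 0.0396 to 0.177 for Cxcl16. The cause of these changes was not tested.

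The 716 genes past the threshold over the whole array became 402 to 853 when 1 array was left out and 217 without the 3 arrays lowest in lymphocyte markers, a fit with fewer samples. Correlations between deviations of arrays with the same replicate number ran from -0.425 to 0.381. They were not compared with those of arrays with different numbers, so they cannot decide whether the numbers pair the samples. With the replicate number as a block 161 genes passed, with 0 members lower and 0 higher.

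Differences that changed sign were, with genes averaged over their probe sets, Ccl28 (0.04), Cxcl12 (0.27) and Ackr2 (-0.05); with array weights, Ccl4 (0.00), Cxcl1 (0.11), Cxcl2 (0.04) and Cxcl14 (-0.09); without the 3 arrays lowest in lymphocyte markers, Cxcl12 (0.03), Cxcl14 (-0.15) and Ackr2 (-0.03); and without sedentary replicates 5 and 7, Cxcl1 (0.27), Cxcl2 (0.14), Cxcl9 (0.10), Cxcl14 (-0.03) and Ccr4 (-0.03). With 1 array left out, the differences ran from -0.25 to 0.00 for Ccl4, from -0.71 to 0.31 for Cxcl1, from -0.67 to 0.05 for Cxcl2 and from -0.43 to 0.01 for Cxcl9, each highest without sedentary replicate 5. They ran from -0.01 (without sedentary replicate 7) to 0.41 for Cxcl14, from -0.11 to 0.03 for Cxcl12 and from -0.02 to 0.08 for Ackr2.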
